A study of Homo sapiens with 46 samples.

Results

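Divergent lncRNAs are long non-coding RNAs that start beside a gene and run away from it on the opposite strand, and gene catalogues name them after that neighbour with the suffix -DT. The members described here were the genes whose name ended in -DT in the 4 count tables built on each cell type's own transcript assembly, with transcript rows summed per Ensembl gene. There were 306 of them among 21166 genes, 180 in the hPSC table, 237 in the ectoderm table, 122 in the endoderm table and 157 in the mesoderm table. The partner of each was the gene named before the suffix, and it stood in the same table for 167, 234, 111 and 153 members respectively. Short-read RNA-seq had been done on subcellular fractions of H1, a widely used line of human pluripotent stem cells (hPSC), and of 3 germ-layer cultures derived from that line, ectoderm, endoderm and mesoderm. The labels give 46 libraries in 16 groups, 3 for each cell type in the cytoplasm, the nucleus, the nucleoplasm and the chromatin, except for a single mesoderm nucleoplasm library. The tables' columns for the nucleus carry the code Nei, which was read as nucleus because the other 3 fractions had codes of their own, so each comparison with the nucleus rests on that reading. Undifferentiated cells were kept in mTeSR1. Endoderm was made with WNT3A and Activin A, mesoderm with Activin A followed by VEGF, BMP4 and bFGF, and ectoderm with A83-01, PNU-74654 and dorsomorphin, inhibitors of TGF-beta, Wnt and BMP signalling. The fractionation buffers of every group held α-amanitin, an inhibitor of RNA polymerase II. The whole study thus rests on 1 cell line, and the labels do not say that the repeats were separate cultures, so p-values measure the spread between these libraries, which may be technical.

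Most active CpG-island promoters in human cells fire in both directions, one polymerase making the mRNA and another a non-coding RNA upstream. The upstream transcript usually meets few U1 snRNP sites and many early polyadenylation signals, so it tends to be terminated early, also by the Integrator complex, and to be degraded by the nuclear exosome. Some divergent RNAs escape this, are spliced and become stable, and in pluripotent cells several lie beside genes of early development.

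RefSeq's GRCh38.p14 annotation held 295 of the 306 members by symbol, 294 of them labelled lncRNA. For 228 pairs it gave a promoter window of 300 bases (250 before and 50 after the start) for both genes. In all 228 the member and its partner were on opposite strands, which the naming of such genes already implies. Where a gene had several windows, the pair with the closest starts was taken. The 2 starts lay within 1000 bases in 219 pairs and within 300 bases in 165, with a median distance of 185 bases and a maximum of 142085. In 213 pairs the genes pointed away from each other, and in 15 the member started inside the partner's side. The 2 windows overlapped in 193 pairs, so a member and its partner mostly shared promoter sequence.

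**Figure D1:**
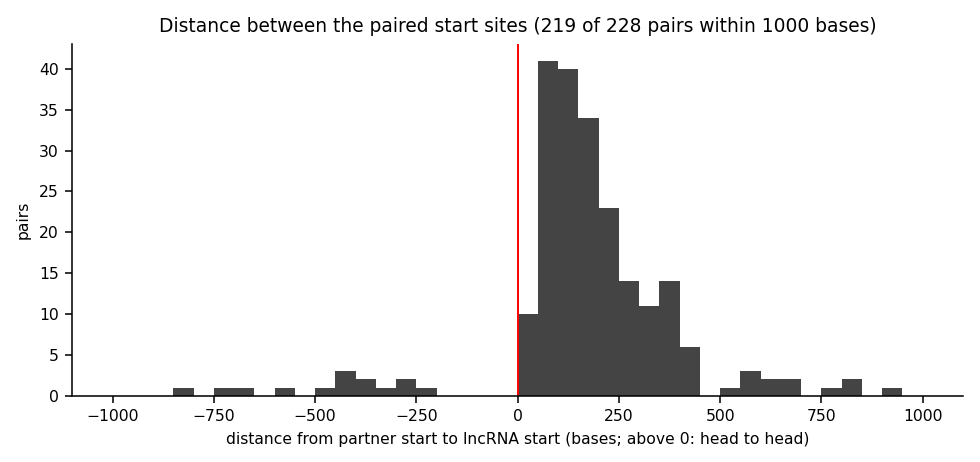
Number of pairs (vertical axis) by the distance in bases from the partner's start to the divergent lncRNA's start (horizontal axis, bins above 0 are head-to-head pairs), for the 219 of 228 pairs whose starts lie within 1000 bases. Of the 228 pairs, 165 lie within 300 bases.

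The windows of 5 members on which later results turn are printed here to show this layout, each 5′ to 3′ on the member's strand, with the member's start at position 251. Capitals mark matches, on either strand, to any of the 5 motifs searched. These were the TATA motif TATAAA, the CCAAT box, the GC box core GGGCGG, the ETS core CCGGAAG and the palindrome read by NRF1. EMSY-DT (ENSG00000255135, minus strand) is at chr11:76444631-76444930, NUP50-DT (ENSG00000226328, minus strand) at chr22:45163732-45164031, TMEM161B-DT (ENSG00000247828, plus strand) at chr5:88268766-88269065, COPB2-DT (ENSG00000248932, plus strand) at chr3:139389553-139389852 and RAB30-DT (ENSG00000246067, plus strand) at chr11:83071816-83072115.
EMSY-DT: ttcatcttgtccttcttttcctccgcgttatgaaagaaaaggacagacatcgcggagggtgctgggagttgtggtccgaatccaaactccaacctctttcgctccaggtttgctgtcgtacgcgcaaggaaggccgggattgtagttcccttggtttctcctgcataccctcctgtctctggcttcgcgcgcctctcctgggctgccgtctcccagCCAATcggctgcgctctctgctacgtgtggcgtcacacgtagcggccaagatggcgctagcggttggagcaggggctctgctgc
NUP50-DT: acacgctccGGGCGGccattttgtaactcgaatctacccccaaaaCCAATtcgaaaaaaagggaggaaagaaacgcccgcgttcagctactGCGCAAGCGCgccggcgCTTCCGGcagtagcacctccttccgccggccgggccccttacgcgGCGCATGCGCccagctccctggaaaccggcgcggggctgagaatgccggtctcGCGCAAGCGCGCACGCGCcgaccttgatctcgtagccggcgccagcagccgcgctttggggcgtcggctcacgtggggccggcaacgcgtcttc
TMEM161B-DT: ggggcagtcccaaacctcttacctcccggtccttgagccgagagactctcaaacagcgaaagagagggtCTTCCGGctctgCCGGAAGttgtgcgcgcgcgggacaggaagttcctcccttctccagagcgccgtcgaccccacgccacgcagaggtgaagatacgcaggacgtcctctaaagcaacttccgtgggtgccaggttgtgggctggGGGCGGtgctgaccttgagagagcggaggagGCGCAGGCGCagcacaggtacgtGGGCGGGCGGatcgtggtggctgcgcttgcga
COPB2-DT: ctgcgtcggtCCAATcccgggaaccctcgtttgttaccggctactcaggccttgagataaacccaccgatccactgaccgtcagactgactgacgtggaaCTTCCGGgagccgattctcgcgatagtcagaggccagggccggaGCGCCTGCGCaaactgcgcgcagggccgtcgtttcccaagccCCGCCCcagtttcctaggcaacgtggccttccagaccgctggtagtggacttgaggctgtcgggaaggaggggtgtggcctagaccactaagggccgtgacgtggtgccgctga
RAB30-DT: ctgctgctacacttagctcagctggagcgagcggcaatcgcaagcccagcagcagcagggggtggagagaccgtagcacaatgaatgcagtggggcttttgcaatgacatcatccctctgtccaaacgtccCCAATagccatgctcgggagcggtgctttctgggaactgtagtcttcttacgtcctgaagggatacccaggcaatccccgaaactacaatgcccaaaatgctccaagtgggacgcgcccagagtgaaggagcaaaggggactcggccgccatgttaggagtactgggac

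The partner's start falls inside 4 of these windows, at position 107 for NUP50, 80 for TMEM161B, 128 for COPB2 and 82 for RAB30. The EMSY start lies 338 bases from that of EMSY-DT and outside the window. NUP50-DT carried 7 matches, 4 of them to the NRF1 palindrome with the last pair overlapping, whereas the windows of EMSY-DT and RAB30-DT carried a single CCAAT each. Among the 228 member windows GGGCGG was in 73.2%, against 76.3% of partner windows and 45.0% of the 34961 windows in the RefSeq table. CCGGAAG was in 25.0% against 28.1% and 10.3%, and the NRF1 palindrome in 18.0% against 19.7% and 5.8%. CCAAT was in 33.8%, 41.7% and 34.6%, and TATAAA in 5.3%, 5.3% and 11.5%. The motifs did not contain one another. The median GC content of member windows was 68.0%, with 31 CpG dinucleotides, against 58.7% and 14 over all windows. These are matches of letters, counted in windows that members and partners mostly shared.

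Libraries held 4990408 to 21298678 counts, of which 4571871 to 21202092 were in rows that name a gene. Marker genes followed the cell type labels in part. The 10 hPSC markers summed to 3280 to 5631 TPM (transcript abundance scaled for length and library size) in hPSC libraries and to 670 to 3259 in the derived ones. The 10 ectoderm markers summed to 257 to 699 TPM in ectoderm against at most 76.9 elsewhere, and 9 of the 10 endoderm markers were in the endoderm table against 0 in the hPSC and ectoderm tables. Mesoderm markers summed to 122 to 247 TPM in mesoderm, but also to 102 to 183 in endoderm. In hPSC they summed to 9.47 to 121 TPM, up to the edge of the mesoderm range, and in ectoderm to 5.91 to 22.3. The fraction labels were matched less well. In ectoderm, 6 of 6 nuclear control RNAs such as MALAT1 and NEAT1 were higher in the cytoplasm than in the nucleus, and 6 of 9 cytoplasmic controls were lower there with 0 higher. In hPSC 2 of 4 nuclear controls tested were higher in the cytoplasm and 1 lower. In mesoderm NEAT1 (log2 change -0.97), KCNQ1OT1 (-3.67) and SNHG14 (-1.06) were lower in the cytoplasm, and MALAT1 (-0.77) was not called. In endoderm KCNQ1OT1 (-1.7) and MEG3 (-1.86) were lower, SNHG14 (0.68) was higher and MALAT1 (-0.63) was not called. The cytoplasmic controls were 6 higher and 3 lower in hPSC, 4 and 3 in endoderm, and 9 and 0 in mesoderm. Of these 9 genes, MT-ND1, MT-CO1 and MT-CYB are encoded in the mitochondrial genome. By mean TPM these were lower in the cytoplasm than in the nucleus except in mesoderm (MT-CO1 in hPSC, 1156 against 43703, and in mesoderm, 16911 against 6998). Each of the other cytoplasmic controls was higher in the cytoplasm by mean TPM in hPSC and endoderm. Between chromatin and cytoplasm the labels were followed better in endoderm and mesoderm, where 4 of 4 nuclear controls were higher in chromatin, than in hPSC (1 higher, 2 lower of 4) and ectoderm (3 higher, 2 lower of 6). Each fraction result on the members below therefore concerns the libraries labelled with that fraction, and the part that the makeup of the fractions had in it was not tested. A library's counts are shares of its own RNA, so fewer cells of a type and less RNA per cell cannot be told apart.

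Presence in a table varied widely. Of the 306 members, 60 were in all 4 tables, 64 in 3, 82 in 2 and 100 in a single one, the last made up of 48 in ectoderm, 23 in hPSC, 15 in mesoderm and 14 in endoderm. The partner was usually present where the member was absent: it stood in the table for 117 of the 126 members missing from the hPSC table, 64 of 69 from ectoderm, 156 of 184 from endoderm and 135 of 149 from mesoderm. Absence from a table is not a measured 0, since each table lists the transcripts of its own assembly.

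Members were low compared with their partners. The median member level, taken as the mean over the fraction means, was 1.13 TPM for hPSC, 1.17 for ectoderm, 0.931 for endoderm and 1.46 for mesoderm, against 10.1, 8.07, 12.0 and 15.4 over all genes and 16.5, 15.3, 17.6 and 19.5 over the partners. A level under 1 TPM was found for 85 of 180, 110 of 237, 63 of 122 and 59 of 157 members. The partner was above the member in 159 of 167 hPSC pairs, 215 of 234 ectoderm pairs, 108 of 111 endoderm pairs and 144 of 153 mesoderm pairs. Across pairs the 2 levels showed almost no rank relation, with Spearman's rho of 0.01, 0.14, 0.09 and 0.01 in the same order. Both genes of a pair were read from the same libraries, and these rho values only describe the pairs.

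**Figure D2:**
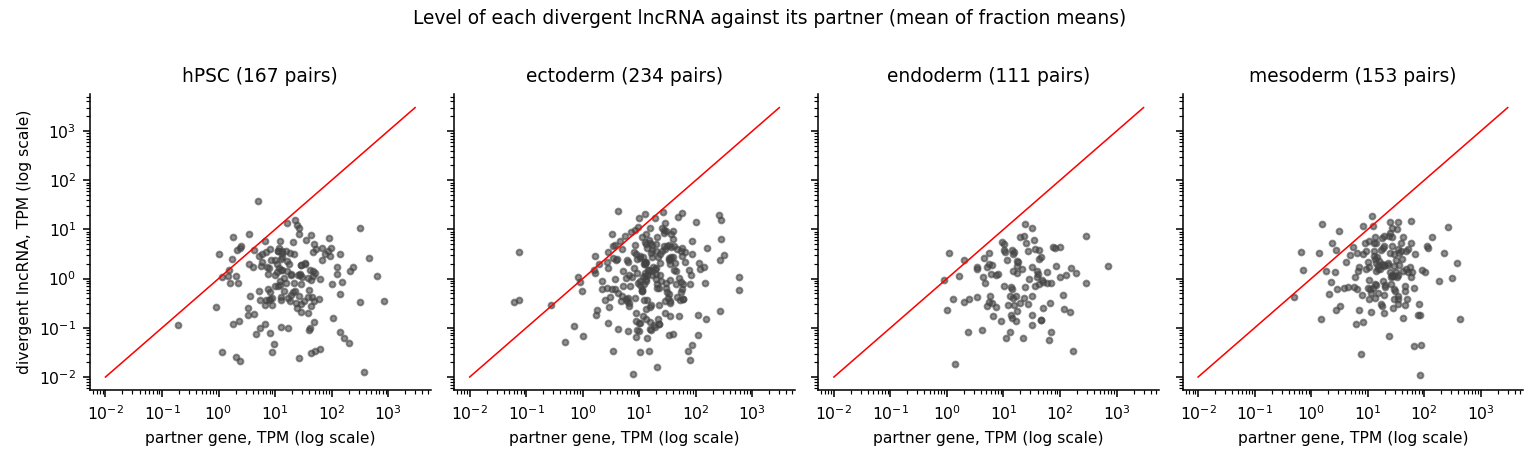
Level of each divergent lncRNA (vertical axis, TPM, log scale) against that of its partner (horizontal axis, TPM, log scale), 1 point per pair, 1 panel per cell type. The red line marks equal levels, and 159 of 167 hPSC pairs lie below it.

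EMSY-DT was the most abundant member in hPSC at 37.6 TPM. Its partner EMSY encodes a BRCA2-binding regulator of transcription and stood at 4.99 TPM. In hPSC, EMSY-DT measured 73.3, 60.7 and 60.0 TPM in the cytoplasm, 36.7, 21.1 and 21.5 in the nucleus, 25.5, 21.2 and 23.3 in the nucleoplasm and 40.2, 31.1 and 36.2 in the chromatin. The 3 cytoplasm libraries were above the other 9. In endoderm it was far lower, at 2.92, 2.34 and 2.83 TPM in the cytoplasm and 2.23, 1.35 and 1.43 in the chromatin. It was again the highest member in mesoderm (18.6 TPM) and second in ectoderm (23.0 TPM).

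Among the next members in hPSC were PCCA-DT, beside a subunit gene of propionyl-CoA carboxylase, at 15.3 TPM, and RNASEH1-DT, beside the gene of an enzyme that cleaves RNA in RNA-DNA hybrids, at 13.5. FLVCR1-DT stood at 12.6 TPM and ZNF496-DT at 10.5. ADAMTS16-DT (8.22 TPM) exceeded its partner (3.39 TPM), and NUP50-DT, beside a nuclear pore protein gene, was at 8.11. PRKACB-DT, beside the gene of a catalytic subunit of protein kinase A, led in ectoderm at 23.2 TPM against 4.23 for PRKACB. In ectoderm it measured 13.0, 7.68 and 13.0 TPM in the cytoplasm and 39.8, 48.5 and 39.4 in the chromatin, with no overlap. NUP50-DT led in endoderm at 13.2 TPM, ahead of PCCA-DT at 10.7, and CRIM1-DT was second in mesoderm at 15.2. Members above their partner numbered 8 (hPSC), 19 (ectoderm), 3 (endoderm) and 9 (mesoderm). ZNF582-DT and ZNF584-DT, beside zinc finger genes, were above in all 4 cell types.

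**Figure D3:**
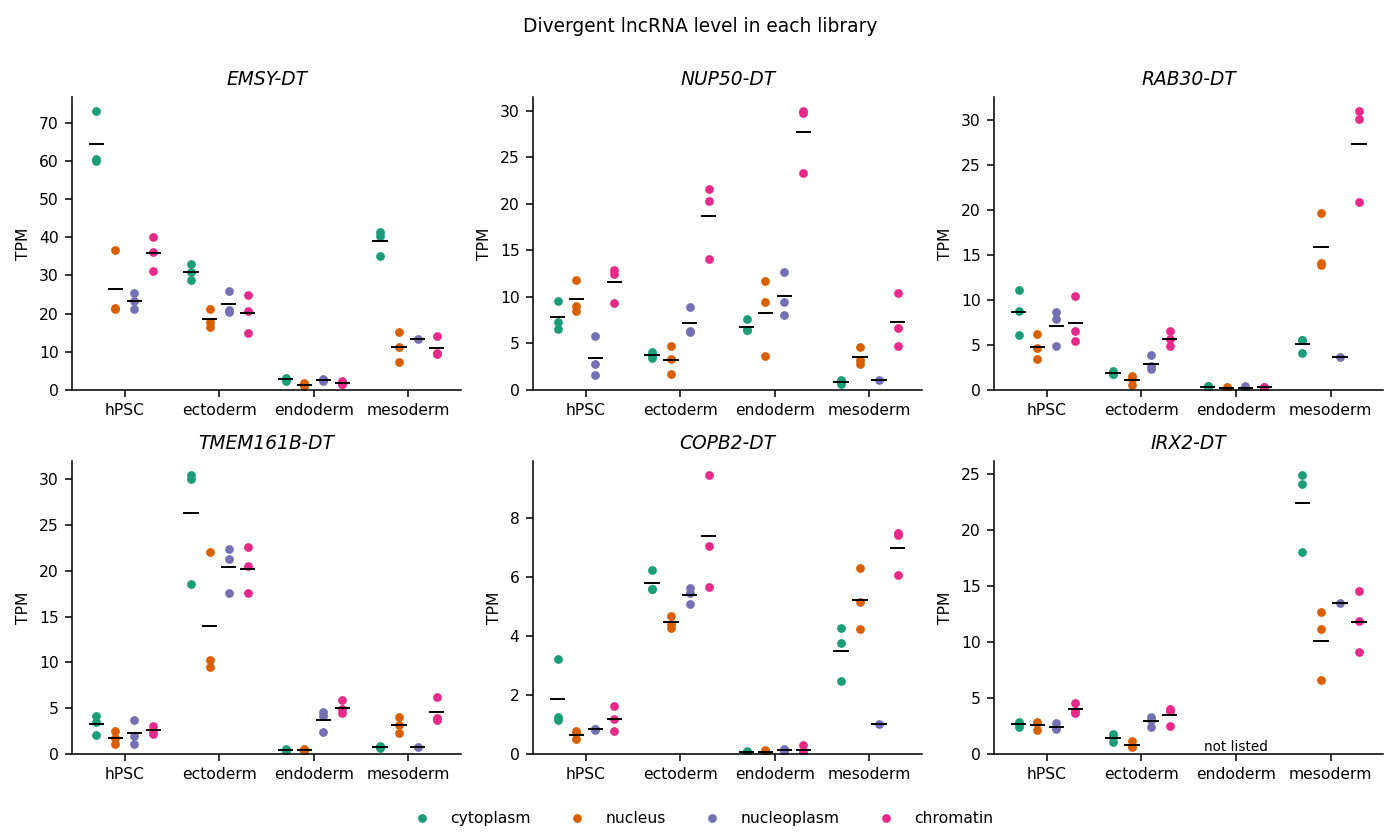
TPM (vertical axis) of 6 divergent lncRNAs in each library, by cell type (horizontal axis) and fraction (colour); bars are means of a group. EMSY-DT was highest in the cytoplasm libraries of hPSC, 60.0 to 73.3 TPM, and NUP50-DT in the chromatin libraries of endoderm, 23.3 to 30.0 TPM; IRX2-DT was not in the endoderm table.

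Summed over all members of a table, the level was highest in the chromatin libraries by mean. In hPSC the sums were 491, 481 and 520 TPM in chromatin against 389 to 409 in cytoplasm, 333 to 366 in nucleus and 247 to 296 in nucleoplasm. In ectoderm they were 1156, 983 and 1075 TPM in chromatin against at most 763 in any other library, and in endoderm 298, 309 and 273 against at most 241. Mesoderm chromatin, at 653, 559 and 469 TPM, overlapped the nucleus libraries, at 453, 464 and 504. These sums are in TPM, and the medians that follow are on a different scale, log2(TPM + 1). Over all genes tested the median change in chromatin against cytoplasm was 0.71 (hPSC), 0.73 (ectoderm), 0.33 (endoderm) and 0.85 (mesoderm). Over the members tested the median change was 0.42, 0.57, 0.16 and 0.34 in the same order. Whether the higher sums in chromatin are particular to the members was not tested.

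Changes between fractions were tested on counts with edgeR's quasi-likelihood test, two-sided, with p-values adjusted by Benjamini and Hochberg over all genes and called under 0.05. A filter on low counts kept 119 of 180 hPSC members, 167 of 237 ectoderm members, 84 of 122 endoderm members and 134 of 157 mesoderm members, and the counts below refer to those. Values per library are TMM-scaled CPM, counts relative to the library total. Members named below for the largest changes between groups were picked only if the groups' libraries did not overlap. Lack of overlap in these members is therefore no further evidence. TMM sets most genes near 0. With plain total counts the median log2 change of all genes moved by up to 0.72, and on log2(TPM + 1) by -0.83 to 0.87, so the split of calls between higher and lower is given under both where it moved by over 10 percentage points.

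Between the cytoplasm and nucleus libraries, called members were more often higher than lower in the cytoplasm by edgeR in each cell type, though the split turned on log2(TPM + 1) in hPSC and mesoderm. The hPSC calls took in 48 of 119 members, 31 higher and 17 lower in the cytoplasm, beside 65.7% of all genes called (35.6% higher, 30.1% lower). Ectoderm had 60 of 167 members called, 57 up and 3 down in the cytoplasm (all genes 53.5%; 28.8% and 24.8%). Endoderm had 23 of 84, 14 up and 9 down (all genes 69.9%; 34.4% and 35.6%), and mesoderm 60 of 134, 46 up and 14 down (all genes 63.4%; 32.1% and 31.2%). The members' share called was thus below that of all genes in each cell type. So was that of LINC-named genes (52.8%, 39.2%, 46.7% and 56.6%) and of antisense-named genes (43.8%, 29.3%, 50.3% and 51.1%). The part that low counts had in this was not tested. The median log2 change of members was 0.18, 0.54, -0.09 and 0.80 in this order, against 0.11, 0.03, 0.01 and 0.00 over all genes. In ectoderm LINC-named genes (63 higher, 2 lower of 166) and antisense-named genes (77 higher, 11 lower of 300) leaned the same way, in the comparison where the nuclear control RNAs also went against the label. The splits moved with the scale: in hPSC to 25 higher and 21 lower with DESeq2 and with its size factors in edgeR, and to 14 and 25 on log2(TPM + 1); in endoderm to 20 and 1 on log2(TPM + 1), 27 and 3 with total counts and 20 and 6 with upper-quartile factors; and in mesoderm to 11 and 26 on log2(TPM + 1). Without nucleus replicate 2 the hPSC count was 29, with 13 higher and 16 lower.

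EMSY-DT was higher in the cytoplasm in each cell type, with log2 changes of 1.43 ± 0.21 (SE, n = 3 against 3, as for each change below), 0.48 ± 0.16, 0.77 ± 0.27 and 2.12 ± 0.25 in the same order (edgeR adjusted p 4.22e-05, 0.0195, 0.0187 and 2.66e-05). In hPSC the largest rises in the cytoplasm belonged to COPB2-DT, MACC1-DT and RAB30-DT. COPB2-DT, beside a coatomer subunit gene, measured 3.63, 1.13 and 0.934 CPM in the cytoplasm and 0.524, 0.332 and 0.492 in the nucleus, a log2 change of 1.93 ± 0.55 (edgeR adjusted p = 0.00701). Cytoplasm replicate 1 stood well above the other 2. MACC1-DT, at 9.86, 5.14 and 3.74 against 2.09, 1.66 and 1.69 CPM, changed by 1.74, and RAB30-DT, beside the gene of a small GTPase of the Golgi, at 8.30, 4.23 and 3.60 against 1.80, 1.91 and 1.55, by 1.58. The groups of both did not overlap, which was a condition for naming them. FIGNL2-DT (log2 change -2.10), ZNF8-DT (-1.76) and CTTN-DT (-1.46), the last beside the cortactin gene, were lower in the cytoplasm. CTTN-DT measured 0.908, 0.845 and 1.00 CPM there against 1.57, 2.74 and 3.31, while CTTN itself changed by 0.16 (edgeR adjusted p = 0.262).

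In ectoderm MRPS30-DT, beside a gene of the mitochondrial ribosome, measured 8.57, 5.29 and 6.59 CPM in the cytoplasm and 1.74, 0.622 and 1.90 in the nucleus. Its log2 change was 2.30 ± 0.38 (edgeR adjusted p = 0.00023), against 0.14 for MRPS30 (adjusted p = 0.389). NOVA1-DT, beside a neuronal splicing factor gene, changed by 1.81 and AP1AR-DT by 1.77, with the partners at 0.92 and 2.14, both called. The 3 members lower in the cytoplasm were MAN2A1-DT (-1.05), beside a Golgi mannosidase gene, MIF4GD-DT (-0.74) and BAIAP2-DT (-0.35). None of these 3 calls held on log2(TPM + 1) or with total counts, and that of NOVA1-DT did not hold on log2(TPM + 1) (edgeR or limma adjusted p 0.0852 to 0.94). The edgeR adjusted p of MIF4GD-DT was 0.0572 without nucleus replicate 2, and that of BAIAP2-DT was 0.0561 without cytoplasm replicate 1 and 0.0604 without nucleus replicate 3.

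In endoderm ZMPSTE24-DT, beside the gene of the protease that matures prelamin A, measured 4.38, 5.10 and 4.39 CPM in the cytoplasm and 0.542, 1.13 and 0.996 in the nucleus. It was higher by 2.34 ± 0.32 (edgeR adjusted p = 1.15e-05), while ZMPSTE24 was lower by -0.68 (adjusted p = 0.0201). PIK3R5-DT (1.79) and TFIP11-DT (1.33) were also higher there. AFDN-DT, beside the gene of the junction protein afadin, went the other way at 1.00, 0.953 and 2.10 against 4.44, 8.75 and 6.74 CPM, a change of -2.31 ± 0.34 (edgeR adjusted p = 2.66e-05). LHX1-DT, beside a LIM homeobox gene, measured 1.08, 0.953 and 0.439 against 3.47, 4.70 and 3.98 CPM (-2.27), and RNF139-DT changed by -2.19. Nuclear libraries exceeded cytoplasmic ones for all 3 members, which was a condition for naming them here. On log2(TPM + 1), where low genes change less, the calls of LHX1-DT and RNF139-DT were lost (limma adjusted p = 0.268 and 0.058).

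In mesoderm SLC12A2-DT, beside a sodium-potassium-chloride cotransporter gene, measured 3.11, 2.80 and 4.29 CPM in the cytoplasm and 0.557, 0.422 and 0.500 in the nucleus. It was higher in the cytoplasm by 2.73 ± 0.52 (edgeR adjusted p = 0.000813), while SLC12A2 was lower there by -1.88 (adjusted p = 5.48e-06). ZDHHC12-DT, beside a palmitoyltransferase gene, was higher by 2.63 and TARS1-DT, beside the threonyl-tRNA synthetase gene, by 2.36. IRX2-DT, beside an Iroquois homeobox gene, was at 8.38, 13.8 and 14.5 CPM in the cytoplasm against 3.34, 2.53 and 3.20, higher by 2.00 ± 0.28 (edgeR adjusted p = 9.65e-05). EOLA2-DT went the other way, at 4.12, 4.69 and 5.66 against 15.6, 15.3 and 12.9 CPM (-1.60), as did APPBP2-DT (-1.42) and SLC2A1-DT (-1.68), beside a glucose transporter gene. The call of SLC2A1-DT was lost without cytoplasm replicate 2 (edgeR adjusted p = 0.0526) or nucleus replicate 1 (0.0744).

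Between the chromatin and cytoplasm libraries the direction differed by cell type. Among hPSC members 47 of 119 were called, 21 up and 26 down in chromatin, against 63.8% of all genes (34.8% up, 29.0% down). Among ectoderm members it was 64 of 167, 47 up and 17 down (all genes 61.9%; 32.9% and 29.0%). The counts were 37 of 84 for endoderm, 20 and 17 (all genes 73.0%; 37.7% and 35.3%), and 64 of 134 for mesoderm, 23 and 41 (all genes 66.2%; 32.8% and 33.5%). The members' median log2 changes were -0.20, 0.19, -0.01 and -0.49, against 0.08, 0.09, 0.05 and -0.02 over all genes. LINC-named genes had medians of -0.11, 0.40, 0.78 and 0.23 and antisense-named genes of 0.04, 0.50, 0.76 and 0.36. On log2(TPM + 1) the splits were 61 up and 9 down for hPSC, 114 and 2 for ectoderm, 25 and 11 for endoderm and 43 and 11 for mesoderm, and with total counts 60 and 7 for ectoderm and 29 and 30 for mesoderm. The balance of directions therefore depended on the scale.

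EMSY-DT was lower in chromatin in each cell type, by log2 changes of -1.45 ± 0.21, -0.99 ± 0.16, -1.09 ± 0.27 and -2.14 ± 0.25 for hPSC, ectoderm, endoderm and mesoderm (edgeR adjusted p 4.23e-05, 9.67e-05, 0.00217 and 3.02e-05). In ectoderm its libraries read 7.58, 7.02 and 9.06 CPM in chromatin and 14.3, 16.6 and 16.1 in cytoplasm, while EMSY was higher in chromatin by 0.95. NUP50-DT showed the opposite in the 3 derived cell types, with 1.37 ± 0.20 in ectoderm, 1.72 ± 0.28 in endoderm and 1.92 ± 0.36 in mesoderm (edgeR adjusted p 4.28e-05, 5.25e-05 and 0.000647), and -0.34 ± 0.37 in hPSC (adjusted p = 0.442).

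In hPSC MTA1-DT, beside the gene of a subunit of the NuRD chromatin remodelling complex, measured 9.73, 8.27 and 8.81 CPM in chromatin and 0.778, 1.62 and 1.60 in the cytoplasm. Its log2 change was 2.67 ± 0.30 (edgeR adjusted p = 5.14e-06), against 0.30 for MTA1 (adjusted p = 0.0643). MAP4K3-DT, beside a kinase gene, was higher by 2.08, at 8.35, 5.92 and 3.93 against 1.82, 0.634 and 1.94 CPM, and B4GAT1-DT by 2.10, with its partner at 1.83. Those 3 were higher in each chromatin library than in any cytoplasm library, which was a condition for naming them. MACC1-DT (-1.94), SLC12A2-DT (-1.77) and COPB2-DT (-1.55) were lower in chromatin. The call of COPB2-DT was lost without cytoplasm replicate 1 (edgeR adjusted p = 0.097), without chromatin replicate 3 (0.0614) and on log2(TPM + 1) (limma adjusted p = 0.166).

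In ectoderm PSMD7-DT, beside a gene of the proteasome lid, measured 2.46, 2.86 and 3.53 CPM in chromatin and 1.07, 0.730 and 0.654 in the cytoplasm, a rise of 1.85 ± 0.48 (edgeR adjusted p = 0.00447). PSMD7 itself was lower in chromatin by -1.32 (edgeR adjusted p = 2.85e-07). ZNF236-DT was higher by 1.67 and so was PRDM16-DT, beside a zinc finger regulator gene, also by 1.67. The latter lost its call without chromatin replicate 1 (edgeR adjusted p = 0.0896) or cytoplasm replicate 1 (0.0545). ZDHHC12-DT (-1.56) and MAP3K9-DT (-1.44) were lower, with limma adjusted p of 0.158 and 0.22 on log2(TPM + 1).

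In endoderm AFDN-DT measured 15.1, 16.8 and 12.6 CPM in chromatin and 1.00, 0.953 and 2.10 in the cytoplasm, a log2 change of 3.46 ± 0.34 (edgeR adjusted p = 3.3e-07), with AFDN higher by 1.56. The spans of these 2 genes overlap by 233 bases. TMEM161B-DT measured 9.28, 6.94 and 7.52 against 1.00, 0.858 and 0.634 CPM, higher by 3.24 ± 0.30 (edgeR adjusted p = 1.73e-07), and its partner by 2.32. RNF139-DT was higher by 3.10 and LHX1-DT by 2.28. OSER1-DT was lower in chromatin by -2.83, at 0.496, 0.336 and 0.584 against 3.84, 3.81 and 2.83 CPM, as were RNASEH1-DT (-2.10) and C2orf74-DT (-2.03). For the members whose values are given, lack of overlap between chromatin and cytoplasm libraries was a condition for naming them.

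In mesoderm EOLA2-DT measured 26.6, 33.1 and 13.9 CPM in chromatin and 4.12, 4.69 and 5.66 in the cytoplasm, higher by 2.35 ± 0.29 (edgeR adjusted p = 4.22e-05), and EOLA1-DT was higher by 2.67. EOLA1 and EOLA2 are near-identical copies, so their reads may have been split between them. SMC5-DT, beside the gene of a chromosome maintenance ATPase, was higher by 3.91 ± 0.91 from 1.28, 2.29 and 4.24 against 0.135, 0.261 and 0.0858 CPM, at most 4 counts in a cytoplasm library. EIF2AK3-DT, beside the gene of the stress kinase PERK, was lower by -3.04, ZDHHC12-DT by -2.96 and SLC12A2-DT by -2.49. IRX2-DT was lower in chromatin by -1.93 ± 0.29 (edgeR adjusted p = 0.000134).

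**Figure D4:**
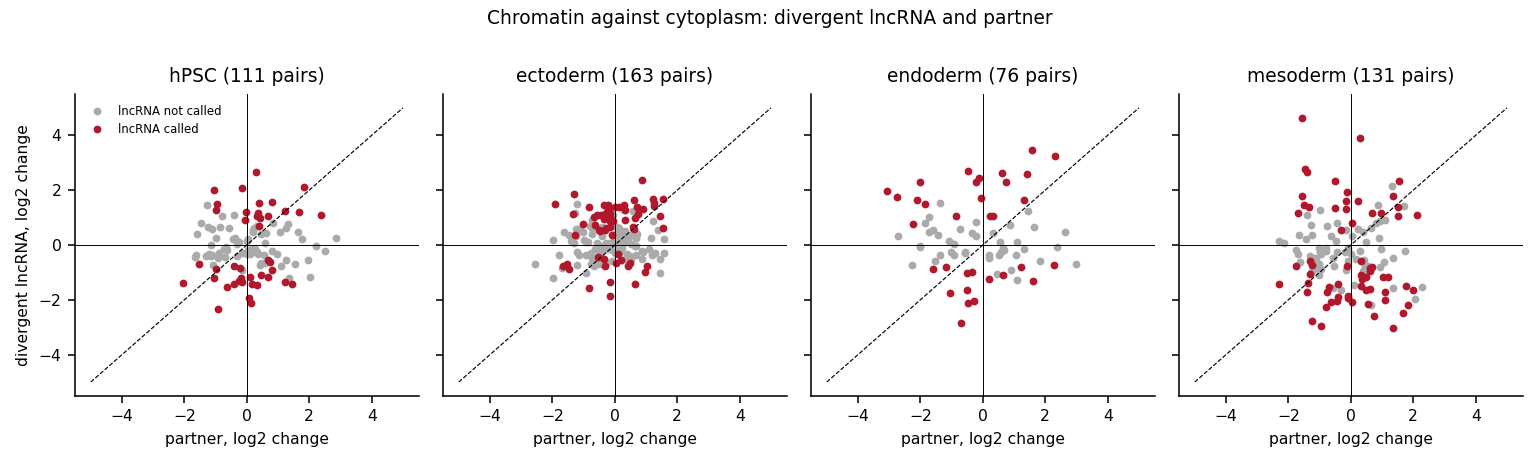
Log2 change in chromatin against cytoplasm of each divergent lncRNA (vertical axis) and of its partner (horizontal axis), 1 point per pair, 1 panel per cell type; red points are divergent lncRNAs called by edgeR at adjusted p under 0.05 and the dashed line marks equal changes. The points form no diagonal, with Spearman's rho of 0.05, 0.10, -0.07 and -0.13 from left to right.

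Between chromatin and nucleoplasm fewer members were called. By edgeR, 11 of 119 hPSC members were called, 11 up and 0 down in chromatin, against 30.7% of all genes (17.2% up, 13.6% down), and 22 had an unadjusted p under 0.05. The count was 37 of 167 for ectoderm, 20 up and 17 down (all genes 43.3%; 21.6% and 21.8%), and 11 of 84 for endoderm, 4 up and 7 down (all genes 53.7%; 23.0% and 30.7%). In hPSC, LINC-named genes (22 up, 1 down of 123) and antisense-named genes (43 and 5 of 224) leaned the same way as the members. The median log2 change there was 0.3 for the members and for each of these classes. The single mesoderm nucleoplasm library was not compared. Cytoplasmic control genes were lower in chromatin for 3 of 9 in hPSC, 8 of 9 in ectoderm and 9 of 9 in endoderm. By mean TPM only the mitochondrially encoded ones were lower there in hPSC. With total counts the splits were 26 and 10 in ectoderm and 20 and 0 in endoderm, and on log2(TPM + 1) 66 and 2 and 21 and 1. DESeq2 gave 12 calls in hPSC, again 12 higher and 0 lower, and the count was 6 without chromatin replicate 1 or nucleoplasm replicate 1 and 5 without nucleoplasm replicate 3.

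MAP4K3-DT and MTA1-DT led in hPSC. MAP4K3-DT, at 8.35, 5.92 and 3.93 CPM in chromatin and 0.887, 1.75 and 1.15 in the nucleoplasm, was higher by 2.25 ± 0.39 (edgeR adjusted p = 0.00122), and MTA1-DT, at 2.31, 1.83 and 1.61 in the nucleoplasm, by 2.22 ± 0.29 (0.000267). The chromatin libraries of both were above the nucleoplasm and the cytoplasm, which was a condition for naming them in these comparisons. GATD1-DT was higher by 1.08. In ectoderm KDM2B-DT, beside a histone demethylase gene, was at 10.2, 7.97 and 10.7 against 2.80, 4.18 and 2.74 CPM, higher by 1.59 ± 0.26 (edgeR adjusted p = 0.00034), though its span overlaps that of KDM2B by 1769 bases. MANEA-DT (-1.72), CEP83-DT (-1.44) and MRNIP-DT (-1.17) were lower, the last with a limma adjusted p of 0.0544 on log2(TPM + 1).

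CHKA-DT (1.64), beside a choline kinase gene, and PRDM16-DT (1.55) were higher in ectoderm chromatin than in the nucleoplasm with less stable calls. CHKA-DT lost its call without chromatin replicate 2 (edgeR adjusted p = 0.109) or nucleoplasm replicate 1 (0.091). PRDM16-DT lost it without chromatin replicate 1 (0.155) or 3 (0.0716), or nucleoplasm replicate 1 (0.12) or 2 (0.0947). In endoderm SRP14-DT, beside a signal recognition particle gene, measured 3.90, 3.36 and 3.94 CPM in chromatin against 1.08, 1.72 and 2.00, higher by 1.23 ± 0.35 (edgeR adjusted p = 0.00771), whereas SRP14 was lower by -1.55. AFDN-DT (1.22) and ZNF8-DT (1.12) were higher too. OSER1-DT (-1.75), PIK3R5-DT (-1.47) and CAPN10-DT (-1.37), the last beside a calpain gene, were lower. With total counts none of these 3 was called (edgeR adjusted p = 0.0501, 0.184 and 0.153), on log2(TPM + 1) PIK3R5-DT and CAPN10-DT were not (limma adjusted p = 0.27 and 0.15), and PIK3R5-DT lost its call without chromatin replicate 1 (0.0586) or 3 (0.0898) or nucleoplasm replicate 1 (0.0597).

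**Figure D5:**
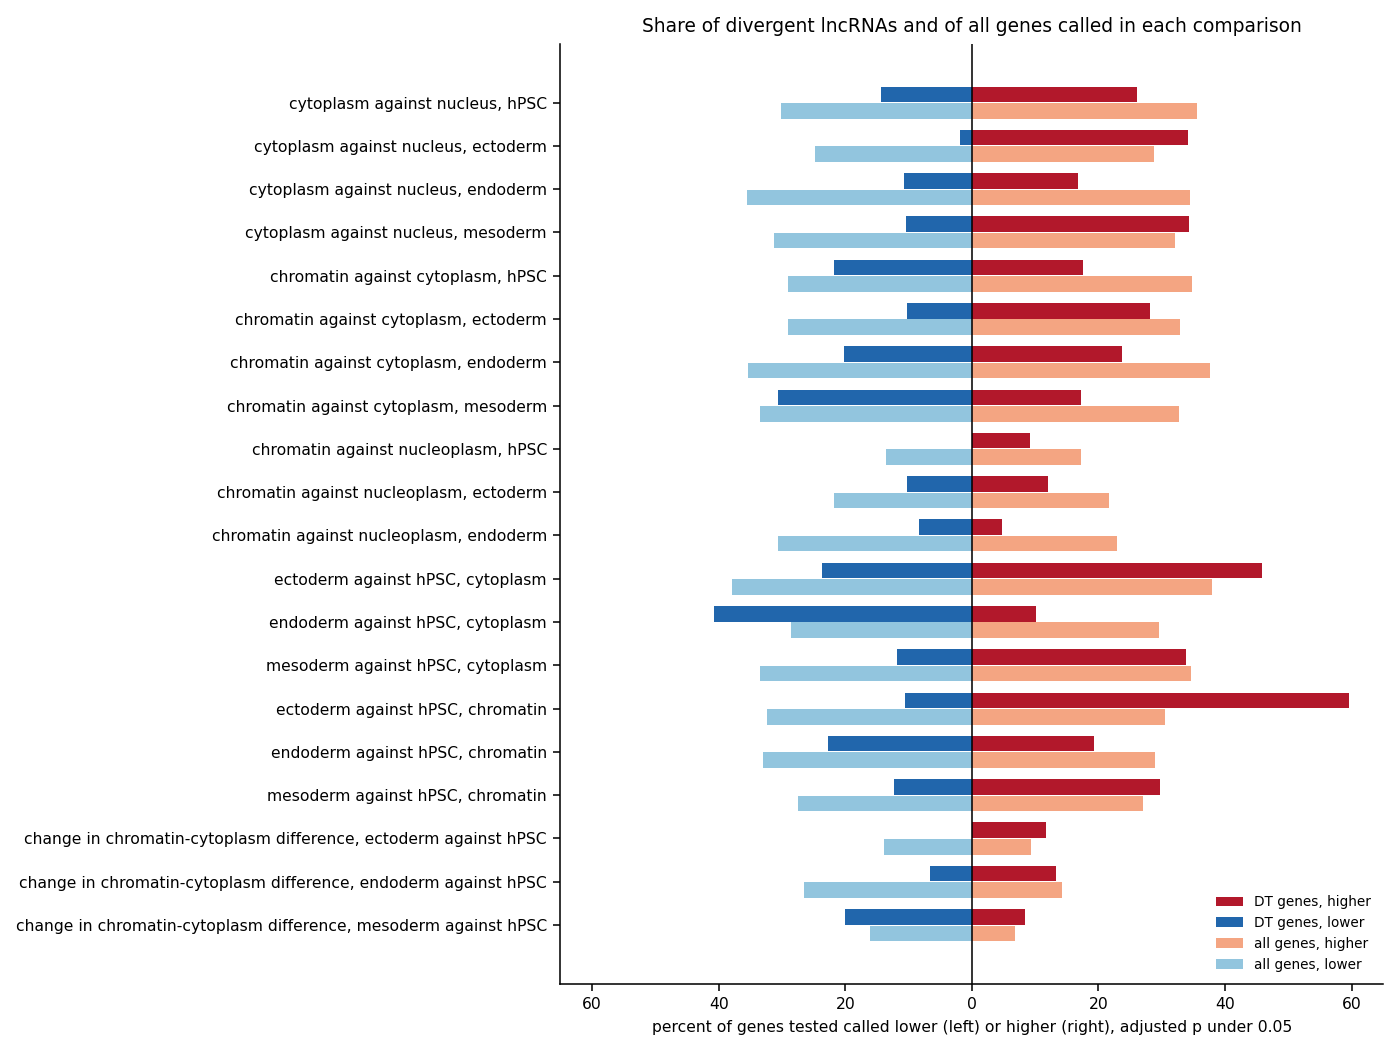
Percent of genes tested that were called higher (right) or lower (left) in each comparison by edgeR at adjusted p under 0.05, for the divergent lncRNAs (DT genes, dark bars) and all genes (light bars). In ectoderm against hPSC chromatin 59.6% of the divergent lncRNAs were higher, against 30.5% of all genes. Of LINC-named and antisense-named genes, not drawn, 45.8% and 49.0% were higher there.

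Each derived cell type was then set against hPSC, in the cytoplasm and in the chromatin, over the genes present in all 4 tables. Of the 60 members there, 59 were tested in the cytoplasm and 57 in the chromatin. The 3 comparisons of a fraction share the hPSC libraries. The tables count different sets of transcripts for the same gene: TMEM161B-DT had 16 transcripts in ectoderm, 2 in mesoderm and 1 each in endoderm and hPSC, and RAB30-DT had 6, 6, 1 and 2 in that order. The cell type and the transcript set it was counted on cannot be told apart in these values. So each comparison was repeated, as an alternative chosen after the data were seen, on the counts of the Ensembl-listed transcripts that both tables hold, which exist for 34 of the 60 members with ectoderm, 27 with endoderm and 25 with mesoderm.

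In ectoderm members were higher than in hPSC more often than lower. In the chromatin 40 of 57 were called, 34 higher and 6 lower, against 62.9% of all genes called (30.5% higher, 32.4% lower). In the cytoplasm 41 of 59 were called, 27 and 14 (all genes 76.0%; 38.0% and 37.9%). The median member change was 1.02 in chromatin and 0.51 in cytoplasm, against -0.05 and 0.01 over all genes. LINC-named genes leaned the same way, with 22 higher and 10 lower of 48 in chromatin and 24 and 12 of 47 in cytoplasm. So did antisense-named genes, with 48 and 23 of 98 in chromatin and 49 and 35 of 100 in cytoplasm. Their medians were 0.74 and 0.43 (LINC-named) and 0.50 and 0.38 (antisense-named). The change was largest for members with more transcripts in the ectoderm table than in the hPSC table. In chromatin the median was 1.77 for these 26 members, 0.62 for the 25 with as many and 0.32 for the 6 with fewer. In cytoplasm it was 1.05 for 26, -0.04 for 27 and 0.16 for 6. On the shared listed transcripts 15 of 27 members were called in chromatin, 12 higher and 3 lower, with a median of 0.65, and 16 of 32 in cytoplasm, 9 higher and 7 lower, with a median of 0.11, beside 59.5% and 62.8% of all genes called.

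In endoderm members were lower than in hPSC more often than higher in the cytoplasm, with 30 of 59 called, 6 higher and 24 lower (all genes 58.1%; 29.5% and 28.6%). In the chromatin 24 of 57 were called, 11 and 13 (all genes 61.9%; 28.9% and 33.0%). The medians were -0.53 and -0.43. LINC-named genes (12 higher, 17 lower of 47) and antisense-named genes (15 and 39 of 100) leaned the same way in the endoderm cytoplasm. On log2(TPM + 1) the split was 11 higher and 12 lower in the cytoplasm and 8 and 18 in the chromatin, where total counts gave 8 and 18 and upper-quartile factors 8 and 19. In mesoderm 27 of 59 were called in the cytoplasm, 20 and 7 (all genes 68.1%; 34.6% and 33.4%), and 24 of 57 in the chromatin, 17 and 7 (all genes 54.6%; 27.1% and 27.5%), with medians of 0.20 and 0.04. On the shared listed transcripts endoderm had 7 of 26 called in the cytoplasm (2 higher, 5 lower) and 6 of 22 in the chromatin (4 and 2), and mesoderm 8 of 25 (6 and 2) and 3 of 21 (2 and 1). Of all genes 42.3% and 54.4% were called there in endoderm and 56.5% and 30.5% in mesoderm.

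NUP50-DT rose in the chromatin of each derived cell type by counts. Its chromatin libraries measured 28.8, 20.8 and 29.8 CPM in endoderm and 2.61, 1.94 and 2.31 in hPSC, a log2 change of 3.53 ± 0.28 (edgeR adjusted p = 2.28e-07), while NUP50 changed by 0.14 (adjusted p = 0.464). In ectoderm the change was 3.18 ± 0.28 (edgeR adjusted p = 3.6e-07) and in mesoderm 2.11 ± 0.28 (3.57e-05). The 3 endoderm libraries stood above all 3 hPSC libraries, which was a condition for naming the member here. On the shared listed transcript it was 2.99 ± 0.31 in endoderm (edgeR adjusted p = 0.000285) and 3.08 ± 0.21 in ectoderm (6.19e-05), and mesoderm shared none. Per length the rise was smaller, from 12.9, 9.30 and 12.4 TPM in hPSC to 30.0, 23.3 and 29.8 in endoderm, and in mesoderm the level was lower, at 10.4, 6.68 and 4.73 TPM. In the endoderm cytoplasm its count rise of 1.45 turned to -0.17 on log2(TPM + 1) (limma adjusted p = 0.459).

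GMDS-DT, beside the gene of an enzyme of GDP-fucose synthesis, was at 8.81, 6.56 and 7.00 CPM in ectoderm cytoplasm and 5.57, 5.58 and 6.15 in mesoderm cytoplasm, with 1 count in all 3 hPSC cytoplasm libraries together. The ratio of counts per total was 250 in ectoderm (95% interval 44.6 to 9917) and 188 in mesoderm (33.4 to 7448), intervals that cover counting error only. In chromatin hPSC had 0 counts, and the level was at least 147-fold higher in ectoderm and at least 71.1-fold higher in mesoderm, against a floor of 3 counts over the hPSC group. GMDS was lower in both cytoplasms, by -1.56 and -0.83. The hPSC table counted GMDS-DT on 1 transcript with no Ensembl entry, against 10 transcripts in ectoderm and 3 in mesoderm, and no listed transcript was shared.

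RIPK2-DT, beside a kinase gene of NOD signalling, and TMEM161B-DT rose in the chromatin of all 3 derived cell types. RIPK2-DT measured 14.4, 14.6 and 12.1 CPM in ectoderm cytoplasm against 0.418, 0.628 and 0.374, a log2 change of 4.81 ± 0.33 (edgeR adjusted p = 4.74e-09), and rose by 3.25 in mesoderm cytoplasm. In chromatin it rose by 4.62 in ectoderm, 3.90 in mesoderm and 1.31 ± 0.34 in endoderm (edgeR adjusted p = 0.00416 for the last). It was counted on 7 transcripts in ectoderm and 2 in mesoderm against 1 in hPSC, none shared. TMEM161B-DT measured 21.4, 34.5 and 15.8 CPM in ectoderm chromatin, 12.9, 9.63 and 10.9 in endoderm and 15.5, 37.0 and 18.3 in mesoderm, against 0.892, 0.620 and 0.684 in hPSC. Its log2 changes were 4.99, 3.90 and 4.99 (edgeR adjusted p 3.34e-07, 5.38e-06 and 6.06e-07). In ectoderm cytoplasm, where the change by all transcripts was 4.05, that of the shared listed transcript was -1.40 (edgeR adjusted p = 0.22), so the count rise there lay in transcripts that the hPSC table does not list.

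By counts, on transcript sets that differ between the cell types as given above, RAB30-DT moved in opposite directions in different cell types. In chromatin it measured 58.3, 81.9 and 47.0 CPM in mesoderm, 0.494, 0.155 and 0.528 in endoderm and 2.26, 2.17 and 2.22 in hPSC. The log2 change was 4.81 ± 0.25 in mesoderm (edgeR adjusted p = 5.77e-09) and -2.37 ± 0.38 in endoderm (0.000124), and in endoderm cytoplasm -3.20. RAB30 changed by -0.27 and 0.61 in the same chromatin comparisons, neither called. Per length the mesoderm rise was smaller, from 10.4, 5.37 and 6.48 to 30.1, 31.0 and 20.9 TPM. In ectoderm cytoplasm the counts were higher by 1.92, while the level per length was lower, at 1.76, 1.69 and 2.11 TPM against 11.1, 8.77 and 6.06.

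Other members rose too. ZNF8-DT rose in endoderm by 3.46 in chromatin, from 4.53, 4.57 and 3.76 to 53.2, 39.1 and 49.7 CPM, and by 2.38 in cytoplasm, counted on 3 transcripts there against 1 in hPSC. ITPR1-DT rose by 4.08 in ectoderm cytoplasm from at most 2 counts in an hPSC library, KDM7A-DT by 1.41 in endoderm cytoplasm and GSK3B-DT, beside the gene of a kinase of Wnt signalling, by 2.74 in mesoderm cytoplasm, from 1.67, 1.57 and 1.12 to 8.32, 9.91 and 10.5 CPM.

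Among members that fell, EMSY-DT went from 16.3, 13.3 and 12.8 CPM in hPSC chromatin to 4.05, 2.17 and 2.85 in endoderm, a log2 change of -2.20 ± 0.28 (edgeR adjusted p = 1.56e-05), and by -1.32 in mesoderm chromatin, where the shared listed transcript changed by -1.89. RNASEH1-DT fell in ectoderm cytoplasm by -2.13, from 32.3, 23.1 and 20.7 to 4.55, 5.58 and 7.00 CPM, and by -1.86 on the shared listed transcripts. Its fall in mesoderm cytoplasm (-1.09) was 0.14 on those transcripts (edgeR adjusted p = 0.694). TARS1-DT fell in ectoderm by -2.67 in cytoplasm and -3.25 in chromatin, together with its partner (-3.55 and -3.23). CENATAC-DT fell by -1.80 in ectoderm chromatin and FAM151B-DT by -2.10 in endoderm chromatin, the latter not called on log2(TPM + 1) (limma adjusted p = 0.192).

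ANKHD1-DT fell in mesoderm by -1.36 in cytoplasm and -2.15 in chromatin, BOLA3-DT by -1.79 in chromatin, and HNRNPD-DT by -2.15 and -2.20. On log2(TPM + 1) HNRNPD-DT was not called in either (limma adjusted p = 0.183 and 0.535), and its chromatin call was lost without hPSC chromatin replicate 1 (edgeR adjusted p = 0.0511) or mesoderm chromatin replicate 2 (0.0826). In ectoderm MAP3K2-DT fell by -2.11 in cytoplasm and APPBP2-DT by -1.39 in chromatin, the latter 0.59 on log2(TPM + 1) (limma adjusted p = 0.0732). In endoderm cytoplasm COPB2-DT fell by -2.67 and ZNF747-DT by -3.07, the latter 0.04 on log2(TPM + 1) (limma adjusted p = 0.874).

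Whether the chromatin-to-cytoplasm change itself differed from that in hPSC was tested by an interaction term over the 60 members. In ectoderm 7 members were called, 7 with a more positive change and 0 with a more negative one by edgeR (all genes 23.2%; 9.33% and 13.9%). There 13 had an unadjusted p under 0.05, and DESeq2 called 11. In endoderm 12 were called, 8 more positive and 4 more negative (all genes 40.8%; 14.3% and 26.5%), and in mesoderm 17, 5 and 12 (all genes 23.0%; 6.88% and 16.1%). The splits moved in endoderm to 13 and 2 with DESeq2, 10 and 2 with its size factors in edgeR, 6 and 8 on log2(TPM + 1) and 6 and 7 with total counts. In mesoderm they moved to 5 and 7 with DESeq2 and to 5 and 5 with its size factors, on log2(TPM + 1) and with total counts. With the shared listed transcripts alone, 2 of 34 members were called in ectoderm, 4 of 27 in endoderm and 0 of 25 in mesoderm by edgeR, where 14.9%, 26.8% and 4.28% of all genes were called. The mesoderm count was 10 without chromatin replicate 2 and 11 without cytoplasm replicate 2 or 3 of mesoderm, and the ectoderm count 11 without hPSC cytoplasm replicate 3.

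NUP50-DT differed from hPSC in all 3 derived cell types, by 1.79 ± 0.34 (ectoderm), 2.00 ± 0.34 (endoderm) and then 2.32 ± 0.36 (mesoderm; edgeR adjusted p 0.000437, 0.000119 and 0.000117). On the scale of this fit, ectoderm read 23.2, 18.7 and 20.8 CPM in chromatin and 6.63, 8.20 and 6.69 in cytoplasm, and hPSC 2.64, 1.95 and 2.39 in chromatin and 2.79, 2.59 and 2.92 in cytoplasm. Chromatin exceeded cytoplasm in ectoderm and not in hPSC. On the shared listed transcript the differences were 1.80 ± 0.29 in ectoderm (edgeR adjusted p = 0.00185) and 2.03 ± 0.38 in endoderm (0.00291). The partner NUP50 differed by 0.01 in ectoderm (edgeR adjusted p = 0.987).

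TMEM161B-DT differed by 4.36 ± 0.58 in endoderm (edgeR adjusted p = 1.14e-05), at 12.5, 9.19 and 10.5 CPM in chromatin and 1.31, 1.13 and 0.847 in cytoplasm, against 0.905, 0.623 and 0.707 and 2.51, 1.02 and 1.57 in hPSC. Its partner differed by 0.92. In mesoderm TMEM161B-DT differed by 2.67. RAB30-DT differed by 2.45 ± 0.34 in ectoderm (edgeR adjusted p = 1.8e-05) and 2.87 in mesoderm. In ectoderm it measured 48.9, 45.5 and 49.7 CPM in chromatin and 20.1, 25.3 and 20.9 in cytoplasm, while in hPSC the cytoplasm (8.93, 4.71 and 4.04) exceeded the chromatin (2.30, 2.18 and 2.30). Restricted to the shared listed transcripts, the ectoderm value was 1.30 ± 1.72 (edgeR adjusted p = 0.69). COPB2-DT differed by 2.32 in ectoderm and 2.92 in mesoderm. Its ectoderm value was -0.05 on the shared listed transcripts (edgeR adjusted p = 0.983), 1.61 without hPSC cytoplasm replicate 1 (0.0621) and 0.63 on log2(TPM + 1) (limma adjusted p = 0.239).

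SRP14-DT differed by 2.35 ± 0.37 in endoderm (edgeR adjusted p = 6.56e-05), reading 5.24, 4.45 and 5.48 CPM in chromatin and 1.15, 1.50 and 1.11 in cytoplasm, and SRP14 went the other way by -1.47. RNF139-DT differed by 2.64. The more negative differences were smaller. They were -1.44 for OSER1-DT, -1.28 for KCTD13-DT and -1.21 for CAPN10-DT in endoderm, and -1.87 for CAPN10-DT, -1.57 for KCTD13-DT and -1.28 for NIPBL-DT, beside the cohesin loader gene, in mesoderm. By those shared transcripts OSER1-DT, CAPN10-DT in both cell types and NIPBL-DT were not called (edgeR adjusted p = 0.71, 0.201, 0.113 and 0.128). CAPN10-DT in endoderm was also not called by DESeq2 (adjusted p = 0.0539) or with its size factors in edgeR (0.0791), nor without endoderm chromatin replicate 1 (0.0837) or 3 (0.0588), endoderm cytoplasm replicate 3 (0.0505), hPSC chromatin replicate 3 (0.0876) or hPSC cytoplasm replicate 2 (0.0889).

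Changes of members and partners between fractions had low rank correlations. Across pairs in which both were tested, Spearman's rho of the 2 log2 changes was 0.02, 0.26, 0.18 and -0.06 for cytoplasm against nucleus (111, 163, 76 and 131 pairs in hPSC, ectoderm, endoderm and mesoderm) and 0.05, 0.10, -0.07 and -0.13 for chromatin against cytoplasm. Both genes of a pair come from the same libraries, and the values describe these pairs only. For chromatin against nucleoplasm it was 0.16, 0.21 and 0.01 in hPSC, ectoderm and endoderm. Where both genes of a pair were called for cytoplasm against nucleus, they moved in the same direction in 15 of 23 hPSC pairs, 32 of 40 ectoderm pairs, 9 of 13 endoderm pairs and 19 of 35 mesoderm pairs. For chromatin against cytoplasm it was 16 of 26, 20 of 36, 13 of 25 and 22 of 44 pairs, and for chromatin against nucleoplasm 4 of 6, 12 of 18 and 3 of 5. Such counts also depend on how the calls of each class split. For cytoplasm against nucleus in ectoderm, 57 of 60 called members and 123 of 183 called partner genes were higher in the cytoplasm. The agreement that the splits alone would give was not computed. In chromatin against nucleoplasm in hPSC the member was above its partner in 82 of 111 pairs, by a median of 0.36 on the log2 scale, and on log2(TPM + 1) by 0.13. In ectoderm against hPSC chromatin it was above in 36 of 49 pairs, by a median of 0.99. In the cytoplasm of endoderm against hPSC it was below in 32 of 50, by a median of -0.56.

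The spans of the 2 genes overlap in 56 of 295 pairs, by a median of 685 bases. The library kit's strand setting is not given in the sources used here, so reads from the overlap of a member and its partner cannot be told apart. In endoderm chromatin against cytoplasm the median difference between member and partner was -1.42 over the 13 overlapping pairs and 0.64 over the 58 others. It was -0.52 and 0.08 in hPSC, 0.16 and 0.40 in ectoderm and -1.15 and -0.02 in mesoderm. Spearman's rho over overlapping and other pairs was 0.60 and 0.01 in ectoderm (25 and 130 pairs), but 0.04 and 0.07 in hPSC, -0.18 and -0.05 in endoderm and -0.25 and -0.10 in mesoderm. EMSY-DT, NUP50-DT, TMEM161B-DT, COPB2-DT and RAB30-DT have no overlap with the partner's span.

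Members beside transcription factor genes of development were few among those tested. IRX2-DT stood at 2.88 TPM in hPSC, 2.14 in ectoderm and 14.4 in mesoderm, and was not in the endoderm table. In mesoderm it measured 18.0, 24.9 and 24.1 TPM in the cytoplasm and 14.5, 11.8 and 9.05 in the chromatin, above each hPSC and ectoderm library. LHX1-DT, tested in endoderm, was at 1.13 TPM against 1.64 for LHX1. PAXIP1-DT, whose partner matches the PAX prefix by name only and encodes a DNA damage response protein, was at 5.80, 8.73, 5.47 and 11.5 TPM in hPSC, ectoderm, endoderm and mesoderm. It rose in ectoderm by 0.83 in cytoplasm and 1.66 in chromatin (edgeR adjusted p = 0.00256 and 0.000123). In mesoderm it rose by 0.6 in cytoplasm and 0.79 in chromatin (edgeR adjusted p = 0.023 and 0.0279). The change in endoderm chromatin was 0.56 and not called (edgeR adjusted p = 0.0899).

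Listed genes that act on the fate of divergent RNA were more often lower than higher against hPSC in the derived cells' cytoplasm. In endoderm the share lower was near that of all genes. The list joins the U1 snRNP, whose sites are few in RNA that is terminated early, with genes that end or degrade such RNA. The pooled counts therefore do not measure removal. Of 38 listed genes of the exosome, its NEXT and PAXT adaptors, the cap-binding complex with ARS2, the U1 snRNP and Integrator, 6 were higher and 24 lower in ectoderm than in hPSC, 2 and 13 in endoderm, and 2 and 24 in mesoderm. Over all genes 38.0% were higher and 37.9% lower in ectoderm, 29.5% and 28.6% in endoderm, and 34.6% and 33.4% in mesoderm. The 11 exosome subunits accounted for 2 higher and 9 lower in ectoderm, 0 and 6 in endoderm, and 1 and 9 in mesoderm, with median log2 changes of -0.95, -0.44 and -0.65. Integrator's 14 subunits had 1 higher and 8 lower, 1 and 3, and 0 and 6. A link between these values and those of the members was not tested.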

How the data were processed

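Total RNA of 4 fractions of H1 cells and of 3 cultures derived from them was sequenced on an Illumina platform after NEBNext Ultra library preparation, per the labels' protocols. The submitters' processing notes name STAR, RSEM and hg38, and versions are not given in the sources used here. The deposited tables held whole-number counts per transcript, which the authors had made on a separate transcript assembly for each cell type, per the file headers. Beside them stood deposited TPM values per transcript, made by the authors and already scaled for length and library, per the file headers. Transcript rows were summed per Ensembl gene. Rows that name no gene held 0.277% to 9.603% of a library's counts and were left out, and 1 further ectoderm cytoplasm column that matched no sample was not used. The mesoderm nucleoplasm column carries the number 3 where the label says repeat 1, so it was used by its group alone.

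Counts were tested with edgeR 4.0.16 (R 4.3.3), by the quasi-likelihood test with TMM scaling, on genes that passed filterByExpr (min.count 10). P-values were adjusted by Benjamini and Hochberg over all genes of a fit and called under 0.05. Fraction comparisons used 1 fit per cell type. Comparisons with hPSC used 1 fit over the genes present in all 4 tables for the cytoplasm, 1 for the chromatin and 1 over both for the interaction. DESeq2 1.42.0, and limma 3.58.1 on log2(TPM + 1), were alternatives, as were other scalings, no filter, a log2 change of at least 1, leaving out each library, a combined assembly for ectoderm and the genes of the 2 tables compared. The alternative on listed transcripts held by both tables was chosen after seeing the data. On simulated counts for chromatin against cytoplasm in hPSC (13913 genes) edgeR recovered 67% of 100 genes changed by 1 on the log2 scale and 94% of 100 changed by 2, with 5.8% false calls among those called. The changed genes were drawn from all genes, not from the members, which are lower in level. All other genes were left unchanged, whereas 63.8% of all genes were called in the real comparison. Recovery and false calls among the members were not measured.

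The members and all gene lists were chosen with earlier results of these data known. Named per comparison were up to 3 rises and 3 falls of the largest size among called members with a mean of at least 1 CPM and no overlap of libraries (overlap was not asked of interactions). Also named were the 8 highest members in hPSC and the 2 highest in each derived cell type by TPM, and members tested whose partner was on a list of developmental transcription factors; 1 member that this rule names is not reported here. No 2 of the 45 replicate pairs were identical, and the smallest chi-square per degree of freedom between replicates was 4.18. Promoter windows came from RefSeq's GRCh38.p14 tables.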

Additional observations from a re-analysis of the deposited data

Results flagged for a closer look

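These 15 results stand out because the change between chromatin and cytoplasm in a derived cell type differed from that in hPSC by an interaction test (edgeR, adjusted over all genes). For ectoderm the log2 difference was 2.45 for RAB30-DT, 2.32 for COPB2-DT and 1.79 for NUP50-DT. For endoderm it was 4.36 for TMEM161B-DT, 2.64 for RNF139-DT and 2.35 for SRP14-DT, and on the negative side -1.44 for OSER1-DT, -1.28 for KCTD13-DT and -1.21 for CAPN10-DT. For mesoderm it was 2.92 for COPB2-DT, 2.87 for RAB30-DT and 2.67 for TMEM161B-DT, against -1.87 for CAPN10-DT, -1.57 for KCTD13-DT and -1.28 for NIPBL-DT. The same hPSC libraries enter all 3 sets of values. The transcripts counted for COPB2-DT numbered 1 in hPSC and endoderm and 4 in ectoderm and mesoderm, and CAPN10-DT had 1 in each table.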

How the results depend on the processing

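Of 1641 values recomputed for the 114 named changes, 1581 kept direction and call, 55 kept direction and lost the call, and 5 changed sign. The sign changed on log2(TPM + 1) for NUP50-DT (-0.17) and ZNF747-DT (0.04) in endoderm cytoplasm against hPSC and for APPBP2-DT (0.59) in ectoderm chromatin against hPSC, and on the shared listed transcripts for RNASEH1-DT (0.14) in mesoderm cytoplasm and COPB2-DT (-0.05) in the ectoderm interaction; the cause was not tested.

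Counts of called members moved by over 1.5 times as follows. On log2(TPM + 1) they were 37 for cytoplasm against nucleus in mesoderm, 116 for chromatin against cytoplasm in ectoderm, 70, 68 and 22 for chromatin against nucleoplasm in hPSC, ectoderm and endoderm, and 3 and 10 for the ectoderm and mesoderm interactions. With total counts they were 24 and 20 for chromatin against nucleoplasm in hPSC and endoderm and 10 for the mesoderm interaction. DESeq2 gave 11 for the ectoderm interaction, and its size factors in edgeR 10 for mesoderm. Asking for a log2 change of at least 1 left 34 for cytoplasm against nucleus and 32 for chromatin against cytoplasm in ectoderm, 5 and 18 for chromatin against nucleoplasm in hPSC and ectoderm, 18 for endoderm against hPSC cytoplasm, and 4 and 10 for the ectoderm and mesoderm interactions. With the genes of the 2 tables compared, more members were tested, and the counts were 76 and 87 for ectoderm cytoplasm and chromatin and 45 for mesoderm cytoplasm. On listed transcripts held by both tables, counting also members outside the genes of all 4 tables, they were 8 and 15 for endoderm and mesoderm cytoplasm, 6 and 6 for their chromatin, and 4, 5 and 1 for the ectoderm, endoderm and mesoderm interactions. The cause was not tested.

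The median difference between member and partner changed sign on log2(TPM + 1) for cytoplasm against nucleus in hPSC (0.01) and ectoderm (-0.04), and for chromatin against cytoplasm (-0.03) and nucleoplasm (-0.08) in ectoderm. On that scale it was 0.68 for cytoplasm against nucleus in mesoderm, -0.39, 0.16 and -0.54 for chromatin against cytoplasm in hPSC, endoderm and mesoderm, and 0.13 and 0.03 for chromatin against nucleoplasm in hPSC and endoderm. With total counts and without the filter it was -0.69 and -0.70 for cytoplasm against nucleus in endoderm, and without the filter 0.76 for chromatin against cytoplasm there.

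Leaving out each library gave, for hPSC, ectoderm, endoderm and mesoderm, 29 to 42, 44 to 59, 16 to 26 and 42 to 54 calls for cytoplasm against nucleus and 40 to 48, 46 to 54, 29 to 38 and 52 to 68 for chromatin against cytoplasm. It gave 5 to 11, 31 to 36 and 8 to 11 for chromatin against nucleoplasm. Against hPSC it gave 36 to 41, 27 to 30 and 24 to 30 in cytoplasm, 33 to 40, 18 to 23 and 17 to 26 in chromatin, and 5 to 11, 9 to 14 and 10 to 16 for the interactions. The median differences ran from -0.23 to -0.08, 0.13 to 0.27, -0.78 to -0.4 and 0.36 to 0.62, then -0.15 to -0.01, 0.28 to 0.48, 0.45 to 0.73 and -0.21 to 0.01, then 0.3 to 0.5, 0.1 to 0.19 and 0.22 to 0.48. The mesoderm value for chromatin against cytoplasm was 0.01 without cytoplasm replicate 2 or 3.

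The deviations of same-numbered libraries had correlations of -0.449 to 0.447. These were over 0.1 for all pairs in 0 of 20 comparisons. With so few libraries per group, the correlations cannot decide whether same-numbered libraries share more than a number. With the replicate block the calls were 46, 54, 22 and 52 for cytoplasm against nucleus, 49, 56, 32 and 54 for chromatin against cytoplasm, and 11, 39 and 10 for chromatin against nucleoplasm. Against hPSC they were 40, 30 and 25 in cytoplasm, 39, 22 and 24 in chromatin, and 7, 10 and 15 for the interactions. Ectoderm counted on the combined assembly gave 64, 61 and 39 calls. Depth limits the low members most: 61, 70, 38 and 23 of those in the hPSC, ectoderm, endoderm and mesoderm tables did not pass the filter on low counts.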
